A study of Homo sapiens with 13 samples.

Results

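The 9 genes described here encode forkhead transcription factors: FOXO1, FOXO3, FOXC1, FOXC2, FOXD1, FOXF2, FOXK1, FOXK2 and FOXP1. They were named as a set of family members for T98G cells, an established human glioblastoma line. Accessible regions (peaks) were taken when they overlapped the gene body extended by 10 kb on each side, with gene models of GENCODE release 44 on hg19. This gave 87 of the 129347 peaks measured by ATAC-seq, in which the Tn5 transposase inserts sequencing adapters into open DNA. FOXP1 held 32 of them, FOXK2 17, FOXK1 10, FOXO1 9, FOXO3 6, FOXC2 4, and FOXC1, FOXD1 and FOXF2 3 each.

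G1 cells had received no serum for 72 h. M-phase cells were starved of serum for 48 h and then released for 36 h into medium with serum and nocodazole. Nocodazole depolymerizes microtubules and holds cells in mitosis, and the cells were collected by shake-off. Each phase is represented by 3 replicate libraries, and the labels do not say whether these come from separate cultures, so p-values measure the spread between these libraries, which may be technical. The G1 libraries were sequenced on the HiSeq only and the M-phase replicates on the HiSeq and the NextSeq, with 1 column of values per replicate. Serum release, nocodazole and platform therefore went with the phase, from which they cannot be told apart.

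Forkhead proteins bind DNA through a winged-helix domain. FOXO1 and FOXO3 act downstream of insulin and growth factor signaling. AKT phosphorylates them, 14-3-3 proteins then hold them in the cytoplasm, and in cells without growth factors they are nuclear and activate genes of cell cycle arrest and stress resistance. FOXC1, FOXC2, FOXD1 and FOXF2 are developmental regulators of mesenchymal tissues, FOXK1 and FOXK2 are broadly expressed relatives with a forkhead-associated domain, and FOXP1 is a repressor with many alternative promoters. Accessibility at their genes was compared between the phases, and says nothing by itself about the amount or binding of the proteins.

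The signal is the read count in a peak, scaled by the authors to the smallest library (scaled count). Scaled counts in all peaks summed to between 4191845 and 5092426 in G1 and to between 5475345 and 6000423 in M-phase. The forkhead peaks took 0.117% to 0.122% of this in the G1 libraries and 0.150% to 0.152% in the M-phase libraries, with no overlap. TSS peaks were present at 5 of 8 genes chosen to mark the line, VIM, CD44, FN1, TNC and SOX9, and absent at NES, GFAP and S100B. Of 7 marker genes of blood, epithelium, endothelium and liver, EPCAM alone had a TSS peak, with a mean scaled count of 91.6 in G1 and 107 in M-phase. Changes are given as log2 of M-phase over G1 on log2(scaled count + 8), which understates the change of weak peaks, with adjusted p from limma over all 73121 peaks that passed a filter on low values. Of the 87 forkhead peaks 55 passed it, where 22 had an adjusted p under 0.05 and a higher level in M-phase and 5 a lower one, against 14.3% and 13.1% of all peaks tested. In a bulk library, more cells with an open site and a more open site in each cell cannot be told apart.

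Accessibility at the start sites of the forkhead genes was higher in M-phase than in G1. A transcription start site (TSS) of the gene itself was overlapped by 12 of the 87 peaks, and all 12 passed the filter. The peaks at FOXC2, FOXD1 and the first exons of FOXP1 also overlapped a TSS of another gene (FOXC2-AS1, AC099522.1 and ENSG00000277855). Their signal cannot be assigned to the forkhead start alone. Of the 12, 9 were higher in M-phase, 0 were lower and 3 were not called, with a median log2 change of 0.90. Of 15500 TSS peaks of any gene, 43.2% were called higher and 5.94% lower, with a median of 0.39. In 10 of the 12 every M-phase library lay above every G1 library, as in 48.5% of all TSS peaks, and in 0 below, as in 8.7%. After a loess normalization that removes a trend with peak strength, 3 of the 12 were higher, at FOXC1, FOXK2 and the intron 7 start of FOXP1, and 1, at FOXO1, was lower, against 21.3% higher and 17.1% lower of all TSS peaks. The calls of the FOXO3 (0.14, adjusted p = 0.26), FOXD1 (0.21, adjusted p = 0.145), FOXK1 (0.10, adjusted p = 0.57), FOXC2 (0.29, adjusted p = 0.195), FOXF2 (0.27, adjusted p = 0.213) and first-exon FOXP1 (0.13, adjusted p = 0.471) peaks were lost with it.

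**Figure D1:**
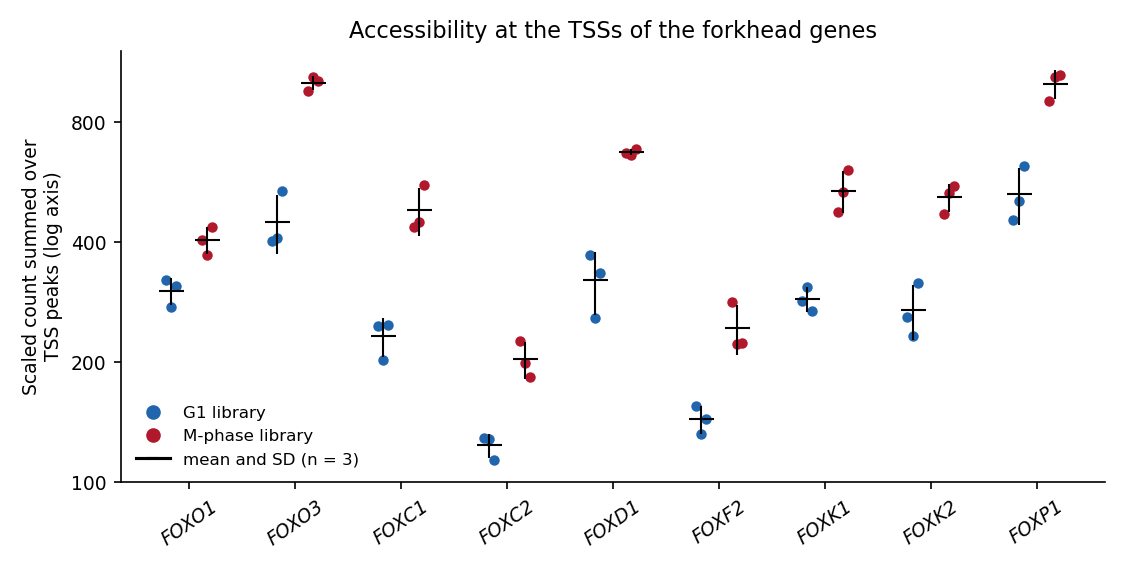
Scaled count summed over the TSS peaks of each forkhead gene (vertical axis, log scale) in each of the 3 G1 and 3 M-phase libraries, with the mean and SD. For all 9 genes the M-phase libraries lie above the G1 libraries, most closely at FOXO1, where the means are 302 and 405.

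Summed over its TSS peaks, each of the 9 genes was higher in M-phase, against 53.4% higher and 6.21% lower of 18659 genes, with a median log2 change of 0.92 against 0.48. FOXO3 and FOXO1, the AKT-restrained members, had the largest and the smallest of these 9 changes as scaled by the authors. After the loess normalization 3 of the 9 sums were higher and 1 lower, against 22.7% of all genes in each direction, and FOXC1 (0.32) and FOXD1 (0.27) were no longer below FOXO3 (0.26). The FOXO3 TSS peak (chr6:108880420-108882845, exon 1 and upstream) had scaled counts of 402.6, 410.2 and 537.0 in G1 and of 958.2, 1039.6 and 1013.9 in M-phase. The 3 M-phase libraries were all far above the G1 range. The log2 change was 1.16 ± 0.15 (SE), with an adjusted p of 2.87e-09. A stretch of 693 bp, 28.3% of this peak, recurs with 97.5% identity in the annotated FOXO3B and ZNF286B genes on chromosome 17, so reads of the copies may be shared.

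At FOXO1 the TSS peak (chr13:41238862-41241334, exon 1 and intron 1) gave 321.1, 275.0 and 310.0 in G1 and 406.2, 372.5 and 436.4 in M-phase. The groups did not overlap, but the log2 change of 0.41 ± 0.17 (SE) had an adjusted p of 0.0564 among peaks. Fitted among the sums per gene, the same counts gave an adjusted p of 0.0286. Its direction depended on scaling, with a log2 change of -0.31 and an adjusted p of 0.0437 after the loess normalization, so FOXO1 has no firm call.

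The log2 excess of the FOXO3 over the FOXO1 sum averaged 0.55 ± 0.23 (SD, n = 3) over the G1 libraries and 1.29 ± 0.14 (SD, n = 3) over those of M-phase. The gap widened by 0.74, with an exact permutation p of 0.1 (two-sided), the smallest p that 3 libraries against 3 allow, and 0.3 after adjustment over the 3 pairs of relatives compared. The mean gap between FOXK2 and FOXK1 changed by 0.05 (exact permutation p = 0.8, adjusted 0.8). Its SD was 0.31 over the G1 and 0.07 over the M-phase libraries, too wide in G1 to show an equal change. The FOXK2 sum also pools 2 TSS peaks, with log2 changes of 1.26 and -0.33. The gap between FOXC1 and FOXC2 widened by 0.35 (exact permutation p = 0.2, adjusted 0.3). These differences within a library do not depend on a factor common to the library.

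Among the developmental members, FOXC1, a regulator of neural crest and eye development, and FOXD1, known from kidney stroma, rose about as much as FOXO3. FOXC1 (chr6:1609515-1612300) had scaled counts of 246.6, 202.3 and 248.0 in G1 and 435.8, 450.8 and 558.2 in M-phase, a log2 change of 1.02 ± 0.17 (SE, adjusted p = 1.2e-06). FOXD1 (chr5:72742542-72744916) had 370.8, 257.8 and 335.0 in G1 and 671.1, 662.6 and 685.7 in M-phase, a change of 1.06 ± 0.16 (SE, adjusted p = 1.46e-07). The M-phase libraries agreed closely at FOXD1 while the G1 libraries spread more widely, and neither gene's groups overlapped. Of the FOXD1 peak, 13.5% is covered by a near-identical stretch at FOXD2.

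FOXC2, which acts in lymphatic vessels and in mesenchymal transition, and FOXF2, a factor of gut and lung mesenchyme, rose less. At FOXC2 (chr16:86600296-86601858) the counts were 129.2, 128.1 and 114.0 in G1 and 226.6, 199.4 and 183.8 in M-phase, a log2 change of 0.68 ± 0.19 (SE, adjusted p = 0.00435). At FOXF2 (chr6:1389398-1391607) they were 155.1, 132.0 and 144.0 in G1 and 283.4, 222.9 and 223.7 in M-phase, a change of 0.72 ± 0.19 (SE, adjusted p = 0.00173). Both had groups that did not overlap. The FOXC2 call was lost without M-phase replicate 1 (0.60, adjusted p = 0.0567), and both calls were lost with equal totals in every library (adjusted p = 0.107 and 0.0522).

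The broadly expressed FOXK1 and FOXK2 rose at their main start sites. FOXK1 (chr7:4721517-4723852) went from 285.3, 309.4 and 269.0 in G1 to 475.8, 535.2 and 606.8 in M-phase, a log2 change of 0.88 ± 0.17 (SE, adjusted p = 1.38e-05). The main FOXK2 start site (chr17:80476879-80478649) went from 181.9, 156.3 and 219.0 to 410.3, 455.7 and 493.7, a change of 1.26 ± 0.18 (SE, adjusted p = 1.12e-08), the highest among the 12 TSS peaks. A second FOXK2 TSS peak, in intron 8 (chr17:80550688-80551599), behaved otherwise, with 78.5, 76.6 and 97.0 in G1 and 60.6, 77.1 and 58.7 in M-phase. Its groups overlapped and its change of -0.33 ± 0.22 (SE) was not called (adjusted p = 0.30), although with equal totals it was called lower (-0.65, adjusted p = 0.00998).

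FOXP1 has 3 TSS peaks along its 629286 bp, and they did not move alike. The peak at the first exons (chr3:71630404-71634034) had 229.7, 311.7 and 326.0 in G1 and 461.4, 592.5 and 587.5 in M-phase, a log2 change of 0.91 ± 0.17 (SE, adjusted p = 1.13e-05). An internal start in intron 7 (chr3:71112852-71114807) had 147.1, 123.4 and 163.0 in G1 and 334.5, 342.0 and 367.1 in M-phase, a change of 1.23 ± 0.18 (SE, adjusted p = 5.79e-08). At the internal start in intron 6 (chr3:71178791-71180313) the values were 77.5, 74.2 and 134.0 in G1 and 108.3, 104.2 and 99.6 in M-phase. G1 replicate 3 was the highest of the 6 there, the groups overlapped, and the change of 0.16 ± 0.22 (SE) was not called (adjusted p = 0.63), with values of -0.16 with equal totals and -0.01 after the loess normalization.

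Both internal FOXP1 starts hold the forkhead consensus TGTTTAC within the central 200 bp of the peak. The match is shown here in 30 bases of the + strand, with the 7 letters of its reverse complement in capitals, because these were the only matches in that window among the 12 TSS peaks.
FOXP1 intron 7 start, chr3:71113812-71113841: tacccaacttgGTAAACAgcgaggatgagg
FOXP1 intron 6 start, chr3:71179523-71179552: gaaaaaaagcaGTAAACAagttggatcacc
One of these peaks rose and the other was not called. Searched on both strands, the same letters occur in the central window of 1.25% of the 16131 TSS peaks of any gene. A match is a description of the sequence and not evidence of binding.

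The TSS peaks of the 9 genes were wide and rich in CpG. Their median width was 2273 bp, against 1152 bp for TSS peaks of any gene, and their median mean scaled count was 337 against 143. The median GC content was 71.4% against 62.5%, and the median observed over expected CpG ratio was 0.89 against 0.73. As a set, these peaks thus differed from TSS peaks of any gene in width, strength and base content. Their change differed as scaled by the authors. After the loess normalization 3 of the 12 were higher and 1 lower, beside 21.3% and 17.1% of all TSS peaks. The difference of the set from other TSS peaks was not tested. Whether the size of the rise goes with any of these traits was not tested.

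Outside the start sites the forkhead genes showed no common direction. Of 70 flanking peaks, which overlap no TSS of any gene, 38 passed the filter. Among these, 10 were higher, 5 lower and 23 not called, with a median log2 change of 0.08. The background over 31203 flanking peaks of protein-coding genes was 7.51% called higher and 14.7% lower, with a median of -0.04. The M-phase libraries lay above all G1 libraries in 12 and below them in 7 of the 38, against 13.2% and 20.9% of the background. The balance of calls depended on scaling, with 4 higher and 8 lower when each library was given an equal total, against 3.64% and 26.4% of the background, and without M-phase replicate 2 the count of lower peaks dropped to 2. Of the 15 called, 5 weak peaks, 3 higher and 2 lower, reached the filter's minimum in every library of the phase where they were high and in fewer than 3 of the other, so they were tested because of that phase and their calls are favoured by the filter.

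**Figure D2:**
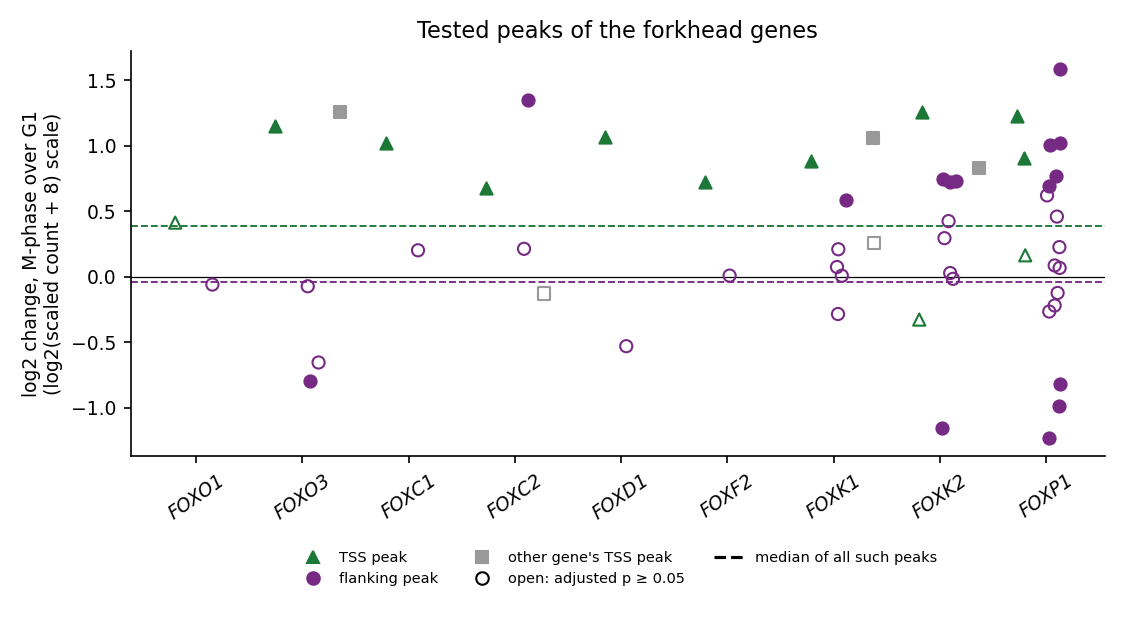
Log2 change from G1 to M-phase (vertical axis) of each tested peak by gene. Triangles are TSS peaks, circles flanking peaks and squares TSS peaks of another gene, filled where the adjusted p is under 0.05, and dashed lines give the medians of all TSS peaks (green, 0.39) and of all flanking peaks of protein-coding genes (purple, -0.04). Most triangles lie above the green line, while the circles scatter from -1.23 to 1.59.

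FOXP1 held 8 of the 15 called flanking peaks, 5 higher and 3 lower. Of 6 flanking peaks that overlap intron 7, 5 were tested, of which 4 were higher and 1 was not called. The 4 rises lay within 8605 bp, at 474.161 to 482.464 kb from the canonical TSS. This stretch was delimited after their values were seen. The weakest of them in G1 (chr3:71150309-71150522) had scaled counts of 5.0, 3.1 and 5.0 in G1 and 29.7, 25.1 and 32.7 in M-phase. This was a 6.68-fold ratio of means and a log2 change of 1.59 ± 0.29 (SE, adjusted p = 5.74e-06), the largest rise among the flanking peaks tested. It passed the filter through its M-phase libraries alone, which favours a rise. The others changed by 0.77, 1.01 and 1.02 on the log2 scale. The last of these, at chr3:71158524-71158913, reached the filter's minimum in 3 M-phase but only 2 G1 libraries. Its call is therefore favoured by the filter as well. In all 3 the M-phase libraries were above the G1 libraries. For example, the peak at chr3:71152592-71153528 had 31.8, 30.5 and 50 in G1 and 82.8, 84.9 and 78.0 in M-phase. The smallest rise of the 4, at chr3:71150869-71151993 (0.77, adjusted p = 0.00728), was not called without M-phase replicate 3 (0.70, adjusted p = 0.0537) or with equal totals (0.46, adjusted p = 0.0954).

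The central 200 bp of the strongest FOXP1 rise are shown because they hold an AP-1 match (TGANTCA) and a RUNX match (TGTGGTT, here as its reverse complement), in capitals and on the + strand of hg19.
FOXP1 intron 7 rise, chr3:71150315-71150514: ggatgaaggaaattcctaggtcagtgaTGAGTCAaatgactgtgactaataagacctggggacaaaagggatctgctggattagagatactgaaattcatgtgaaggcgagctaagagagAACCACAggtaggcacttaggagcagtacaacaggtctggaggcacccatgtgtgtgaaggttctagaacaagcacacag
The window overlaps no exon. AP-1 letters occur in the central window of 12.9% of the 70 flanking peaks and of 12.8% of the 60362 flanking peaks of protein-coding genes, and RUNX letters in 7.14% against 5.08%. TEAD letters (GGAATG) occur in 10.0% against 12.8%.

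The FOXP1 falls lay further 5′ in the gene. The largest (chr3:71439084-71439557, intron 3) went from 20.9, 31.3 and 30 in G1 to 3.7, 11.9 and 6.3 in M-phase, a log2 change of -1.23 ± 0.29 (SE, adjusted p = 0.000513). A second intron 3 peak (chr3:71474978-71475193) went from 18.9, 14.8 and 33.0 to 6.2, 7.4 and 13.0, a change of -0.82 ± 0.29 (SE, adjusted p = 0.0268), and an intron 5 peak (chr3:71307320-71307941) from 49.7, 44.5 and 62.0 to 28.0, 11.9 and 29.8, a change of -0.99 ± 0.27 (SE, adjusted p = 0.00261). In all 3 every M-phase library was below every G1 library, and both intron 3 peaks passed the filter only because of their G1 libraries. The second intron 3 call was lost without G1 replicate 3 (-0.58, adjusted p = 0.197), M-phase replicate 1 (adjusted p = 0.126) or M-phase replicate 2 (adjusted p = 0.0994), and after the loess normalization (adjusted p = 0.0522). The intron 5 call was lost without M-phase replicate 2 (-0.69, adjusted p = 0.0921).

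The central window of the largest FOXP1 fall is shown for contrast with that of the rise. It holds none of the 4 consensus letters searched and is printed without capitals.
FOXP1 intron 3 fall, chr3:71439220-71439419: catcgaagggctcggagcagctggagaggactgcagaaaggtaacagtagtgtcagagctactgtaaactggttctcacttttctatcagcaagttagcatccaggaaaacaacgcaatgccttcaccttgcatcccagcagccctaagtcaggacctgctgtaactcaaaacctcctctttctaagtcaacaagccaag
The forkhead letters TGTTTAC were in the central window of 0 of the 70 flanking peaks, against 3.0% of flanking peaks of protein-coding genes. Anywhere in the peak they were in 2 of the 70 (2.86%), at FOXO3 and FOXK1, against 4.84% of flanking peaks of protein-coding genes. The absence of these letters from a window says nothing about the factors.

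One more FOXP1 flanking peak was higher, in intron 2 (chr3:71552793-71554042), from 74.6, 62.5 and 92.0 in G1 to 129.4, 136.0 and 116.0 in M-phase. Its log2 change was 0.69 ± 0.21 (SE, adjusted p = 0.00872) and its groups did not overlap. The call was lost without G1 replicate 2 (0.57, adjusted p = 0.0568) or M-phase replicate 2 (0.64, adjusted p = 0.0743), and with equal totals (0.37, adjusted p = 0.13).

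**Figure D3:**
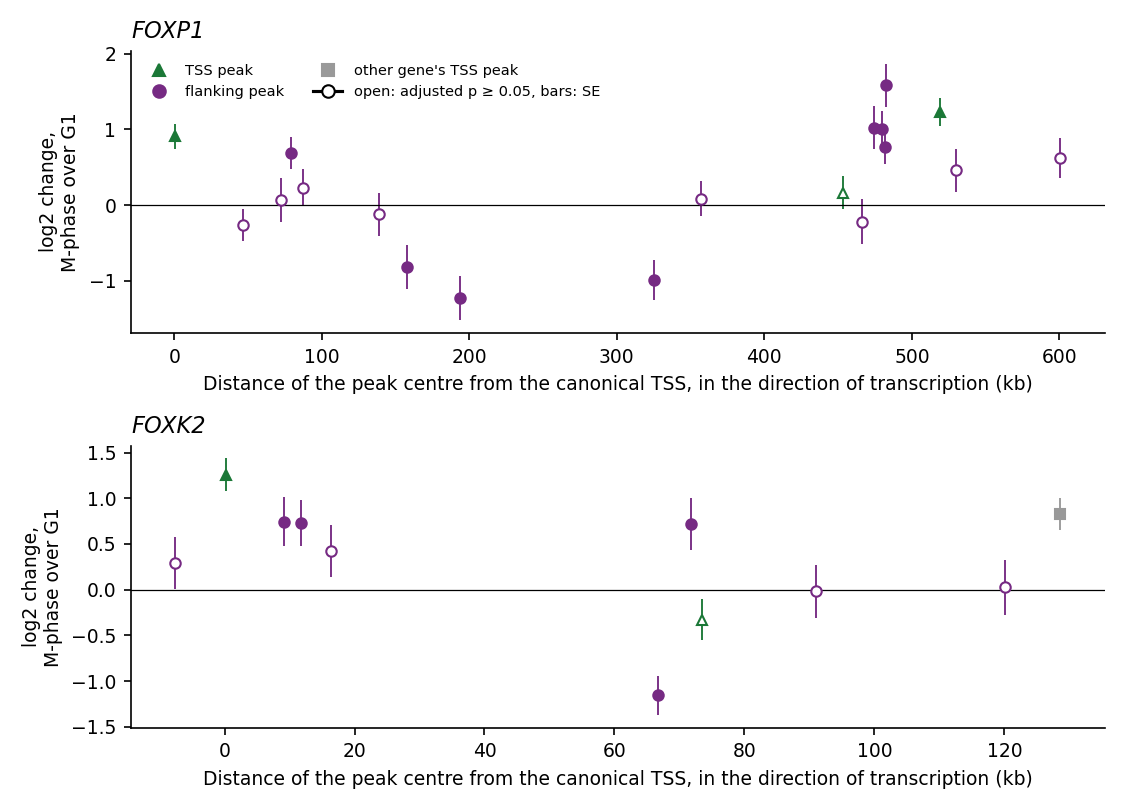
Log2 change from G1 to M-phase with its SE (vertical axis) of the tested peaks at FOXP1 (top) and FOXK2 (bottom) against the distance of the peak centre from the canonical TSS in kb, in the direction of transcription. Filled symbols have an adjusted p under 0.05. At FOXP1 the 3 falls lie 157.794 to 325.249 kb into the gene and the 4 clustered rises around 480 kb; at FOXK2 the fall of -1.16 lies between rises on either side.

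FOXK2 had 4 called flanking peaks, 3 higher and 1 lower. The fall, in intron 7 (chr17:80544084-80544425), was the strongest of the FOXK2 flanking peaks in G1. Its scaled counts were 162.1, 293.8 and 134.0 in G1 and 68.8, 97.7 and 73.1 in M-phase. The groups did not overlap, but G1 replicate 2 stood well above its group. The log2 change was -1.16 ± 0.21 (SE, adjusted p = 1.09e-05), and -0.84, still called, without that replicate. The peak overlaps no TSS but lies within 1 kb of one of FOXK2's.

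The sequence of this FOXK2 peak is a tandem repeat, and its central 200 bp are shown for that reason, chosen after its values were seen. A run of 12 letters, in capitals, occurs 4 times, spaced 49, 48 and 48 bases apart.
FOXK2 intron 7 fall, chr17:80544154-80544353: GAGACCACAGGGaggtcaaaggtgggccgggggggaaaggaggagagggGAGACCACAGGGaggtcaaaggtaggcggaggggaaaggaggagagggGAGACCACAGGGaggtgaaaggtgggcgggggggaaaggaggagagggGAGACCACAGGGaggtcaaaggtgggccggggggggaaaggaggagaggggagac
Reads that fit up to 3 locations were kept at 1 of them and reads that fit more were dropped. Near-identical units may therefore share or lose reads. The part of the repeat in the difference between the phases was not tested.

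The FOXK2 rises were weaker. In intron 1, the peak at chr17:80486565-80486926 went from 14.9, 24.2 and 38.0 in G1 to 49.0, 48.6 and 41.4 in M-phase, a log2 change of 0.74 ± 0.27 (SE, adjusted p = 0.0276), without overlap. Its neighbour at chr17:80489000-80489693 went from 28.8, 23.4 and 40.0 to 65.1, 67.2 and 38.0, a change of 0.73 ± 0.26 (SE, adjusted p = 0.0244), with the lowest M-phase value below the highest G1 value. In intron 8, a weak peak at chr17:80549171-80549444 went from 8.0, 8.6 and 2.0 to 18.5, 14.0 and 12.5 (0.72 ± 0.28 (SE), adjusted p = 0.0465), a peak that passed the filter only because of its M-phase libraries and was not called without a filter (adjusted p = 0.0729) or with a pseudocount of 1 (adjusted p = 0.0618). These 3 calls were near the threshold: each was lost without any of 4 or more single libraries, including G1 replicate 1 (0.49, 0.70 and 0.83) and M-phase replicates 1 and 2, and with equal totals.

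At FOXO3 1 of 4 flanking peaks was lower, 2 were not called and 1 was not tested. The peak downstream of the gene (chr6:109010532-109011206) had scaled counts of 65.6, 64.1 and 76.0 in G1 and 34.6, 25.5 and 51.5 in M-phase. All 3 M-phase libraries were below the G1 libraries, and the log2 change was -0.80 ± 0.25 (SE, adjusted p = 0.00892). A peak in intron 1 (chr6:108902096-108903000) had 38.8, 46.1 and 51.0 in G1 and 17.3, 30.5 and 31.3 in M-phase, again without overlap, with a change of -0.65 ± 0.26 (SE) and an adjusted p of 0.053 that missed the threshold. It was called lower with TMM scaling (-0.77, adjusted p = 0.0156), equal totals (-0.94, adjusted p = 0.00261) and the replicate block (adjusted p = 0.0429), and without G1 replicate 1 or M-phase replicate 3. The downstream call was lost without M-phase replicate 2, which had the lowest value (-0.60, adjusted p = 0.133).

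The central window of the downstream FOXO3 peak and that of the FOXC2 upstream peak are shown as the largest changes at these genes, chosen after their values were seen. Neither holds any of the 4 consensus letters.
FOXO3 downstream fall, chr6:109010769-109010968: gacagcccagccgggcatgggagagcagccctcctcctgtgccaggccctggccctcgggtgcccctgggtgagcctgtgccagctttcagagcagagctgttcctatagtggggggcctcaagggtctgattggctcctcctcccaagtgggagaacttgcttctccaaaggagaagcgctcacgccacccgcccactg
FOXC2 upstream rise, chr16:86597532-86597731: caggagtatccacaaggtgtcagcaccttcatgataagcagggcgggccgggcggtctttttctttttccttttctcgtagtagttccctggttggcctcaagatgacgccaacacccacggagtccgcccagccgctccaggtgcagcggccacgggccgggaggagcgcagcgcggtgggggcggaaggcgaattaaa
Both windows lie outside exons. The FOXC2 peak was CpG-rich, with an observed over expected ratio of 0.86, against 0.20 for the FOXO3 downstream peak.

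FOXC2 differed from FOXO3 in that its flanking accessibility rose. The peak centred 2.803 kb upstream of the TSS (chr16:86597323-86597941) had 21.9, 31.3 and 31.0 in G1 and 81.2, 96.0 and 74.1 in M-phase. Every M-phase library was more than double the highest G1 library. The log2 change was 1.35 ± 0.24 (SE, adjusted p = 5.6e-06), against 0.68 at the FOXC2 TSS peak. The remaining called flanking peak lay in FOXK1 intron 1 (chr7:4778269-4779292), from 76.6, 71.9 and 113.0 to 117.0, 118.7 and 167.0 (0.59 ± 0.21 (SE), adjusted p = 0.0293). That call was lost without G1 replicate 1 or 2 or M-phase replicate 2 or 3, and with TMM scaling, equal totals and the loess normalization, with adjusted p of 0.0589 to 0.303 over these.

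At FOXO1, FOXC1, FOXD1 and FOXF2 no flanking peak was called. FOXO1 had 8 flanking peaks, of which 7 were too weak to be tested, and the tested one changed by -0.06 ± 0.29 (SE). The tested peak upstream of FOXC1 changed by 0.20 ± 0.25 (SE) and that of FOXF2 by 0.01 ± 0.29 (SE). Downstream of FOXD1 (chr5:72731982-72732880) the counts were 55.7, 64.1 and 41.0 in G1 and 37.5, 37.1 and 28.4 in M-phase. Those groups did not overlap, but the change of -0.53 ± 0.25 (SE) was not called (adjusted p = 0.109).

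Summed over all flanking peaks of a gene, 1 forkhead gene was higher, 1 lower and 7 were not called, against 8.53% higher and 12.4% lower among 31899 genes. FOXO3 fell, from 116.4, 138.3 and 171.0 in G1 to 66.3, 77.4 and 98.2 in M-phase (log2 change -0.76 ± 0.19 (SE), adjusted p = 0.00249). FOXC2 rose, from 37.8, 68.0 and 54.0 to 118.7, 122.4 and 99.1 (1.01 ± 0.21 (SE), adjusted p = 0.0002). Neither gene's groups overlapped, and neither call was lost under any alternative run. Without G1 replicate 3, FOXP1 (0.42) and FOXK1 (0.35) were called higher too. With equal totals FOXD1 (-0.73) and FOXK2 (-0.47) were called lower, where the median flanking sum over all genes was -0.31.

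The change of flanking against TSS peaks of the same gene was then tested directly, as the difference of their log2 sums within each library. In 6 of the 9 genes the flanking sum was called lower relative to the TSS sum in M-phase, and in 0 higher, against 38.6% and 4.99% of 11664 genes with both sums. The median over all genes was -0.42. FOXO3 had the most negative difference among the 9, -1.91 ± 0.19 (SE, adjusted p = 1.85e-11), which ranked 120 of 11664 from the most negative. Flanking peaks held 22.4%, 25.2% and 24.2% of its counts in G1 and 6.47%, 6.93% and 8.83% in M-phase. The groups were far apart.

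**Figure D4:**
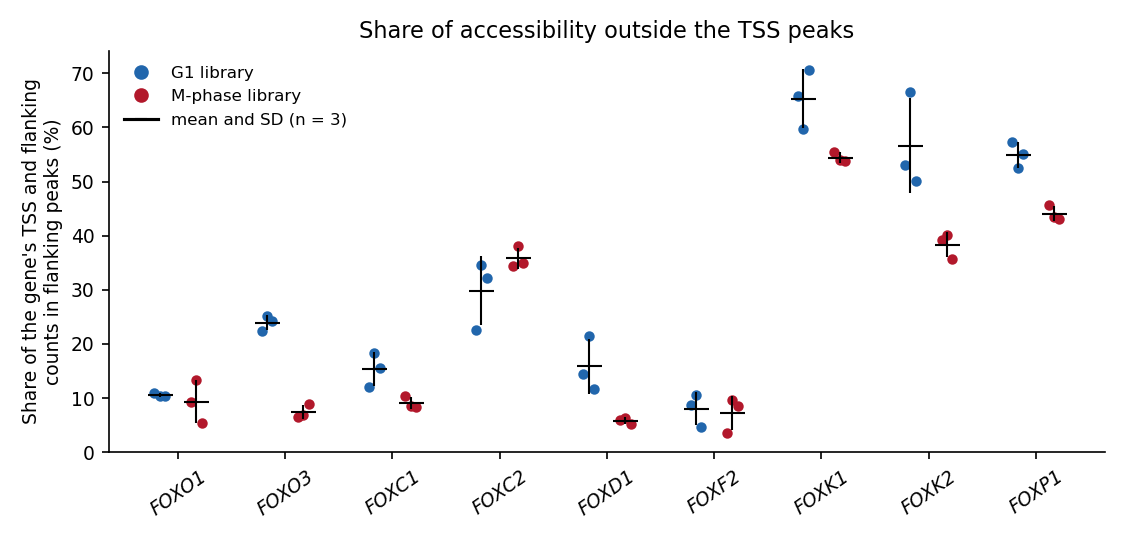
Share of each gene's TSS and flanking counts that lay in flanking peaks, in percent (vertical axis), in each of the 3 G1 and 3 M-phase libraries, with the mean and SD. The FOXO3 share falls from a mean of 23.9% to 7.41%, while the phases overlap at FOXO1, FOXC2 and FOXF2.

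FOXD1 (-1.48 ± 0.24 (SE)), FOXK2 (-1.06 ± 0.19 (SE)), FOXC1 (-0.85 ± 0.25 (SE)), FOXK1 (-0.65 ± 0.15 (SE)) and FOXP1 (-0.63 ± 0.12 (SE)) were also called, with adjusted p of at most 0.00553. Their flanking and TSS counts differ widely, with flanking peaks holding 54.4% of the counts of FOXK1 in M-phase and 5.81% of those of FOXD1. At FOXK2 the tandem repeat peak alone averaged 197 of a mean flanking sum of 359 in G1, and 79.9 of 323 in M-phase. The FOXK2 difference thus leans on that peak, and was not tested without it. FOXO1 (-0.30, adjusted p = 0.38), FOXF2 (-0.36, adjusted p = 0.38) and FOXC2 (0.33, adjusted p = 0.32) were not called. The 6 calls were all made in every fit that left out 1 library, and after the loess normalization 5 were, without FOXC1 (-0.28, adjusted p = 0.389).

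The windows of the forkhead genes also held 5 peaks that overlapped TSSs of other genes only. Of these, 3 were higher, 0 lower and 2 not called, beside 43.2% and 5.94% of all TSS peaks. The nearest lay 2.671 kb upstream of the FOXO3 canonical TSS, at ENSG00000287044 (chr6:108878966-108879932), with 173.0, 191.4 and 247.0 in G1 and 447.8, 503.1 and 529.8 in M-phase. Its log2 change of 1.26 ± 0.17 (SE, adjusted p = 8.73e-09) stands beside 1.16 at the FOXO3 start. AP5Z1, downstream of FOXK1 (1.06), and WDR45B with ENSG00000279613, downstream of FOXK2 (0.83), rose as well, the last not after the loess normalization (0.21, adjusted p = 0.251). ENSG00000287665 in FOXK1 intron 1 (0.26) and the forkhead gene FOXL1 downstream of FOXC2 (-0.13) were not called, and the first of these had a value of -0.30 after the loess normalization.

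At the edge of the windows the values were low or not called. The peaks nearest to the limit on the inside lay 8.047 kb (the FOXL1 start, mean scaled count 84.8 in G1 and 75.7 in M-phase) and 8.314 kb (near FOXO1, 0.667 and 2.37) from a gene body. Just outside lay peaks 10.345 kb from FOXD1 (7.33 and 10.8) and 10.939 kb from FOXF2 (6.77 and 12.3).

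Of 35 other forkhead genes listed, 20 had a TSS peak and 19 were tested, with 9 higher, 3 lower and 7 not called and a median log2 change of 0.19, beside 53.4% higher, 6.21% lower and 0.48 over all genes. The largest rise was at FOXF1, the neighbour of FOXC2 on chromosome 16 and a lung and gut mesenchyme factor (1.35 ± 0.16 (SE), adjusted p = 8.1e-15). FOXP2, a relative of FOXP1 known from speech disorders, fell from 32.8, 54.7 and 53.0 to 20.2, 34.6 and 20.7 (-0.73, adjusted p = 0.0107), with overlapping groups, and FOXD3, a neural crest factor, changed by -0.52 (adjusted p = 0.0236). Of the FOXO members outside the 9, FOXO4 had -0.47 (adjusted p = 0.0403), while FOXO6 had 0.19 and was not called (adjusted p = 0.351). After the loess normalization both were called lower (-0.75, adjusted p = 0.000871, and -0.56, adjusted p = 4.44e-05). FOXM1, which drives mitotic genes, changed by 0.61 (adjusted p = 0.00155), and by 0.03 after the loess normalization. FOXP2 was not called without G1 replicate 2 or M-phase replicate 1 or 3 (-0.62, -0.62 and -0.64), and FOXD3 not without G1 or M-phase replicate 3 (-0.35 and -0.41). FOXO4, FOXO6 and FOXM1 are named here after their values were seen. With equal totals the split of the 19 was 6 higher and 5 lower (36.4% and 17.2% of all genes). After the loess normalization it was 2 and 7 (22.7% each of all genes).

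Of 20 listed genes whose products act on FOXO proteins, among them kinases, coactivators and carriers, all with a TSS peak, 18 were higher, 0 lower and 2 (AKT1 and SKP2) not called, with a median log2 change of 0.87, beside the same 53.4%, 6.21% and 0.48. EP300, an acetyltransferase of FOXO proteins, went from 349.9, 247.7 and 365.0 in G1 to 1190.5, 1341.2 and 1227.5 in M-phase (1.96 ± 0.17 (SE), adjusted p = 4e-29). Its M-phase libraries were far above its G1 libraries, and the call was made under each scaling. The split of the list was not as stable, with 8 higher and 2 lower (PIK3CA and SKP2) after the loess normalization, when 22.7% of all genes were called in each direction.

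Among 13196 protein-coding genes outside the family, those with TSS profiles most like the mean of the 9 over the 6 libraries were CEP131, a centrosomal protein (root mean square difference 0.0243 on the centred log2 scale), PI4KB, a phosphatidylinositol kinase (0.0319), and PLCG1, a phospholipase C (0.0337). The CEP131 counts were 289.3, 258.6 and 301.0 in G1 and 490.6, 499.4 and 536.5 in M-phase. FOXK2 was the closest of the 9 to their mean (0.0976) and FOXO1 the farthest (0.233). This likeness is a description of 6 libraries and was not tested.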

How the data were processed

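Accessibility was analysed in 3 G1 and 3 M-phase libraries of T98G cells; the other assays were not analysed here. Per the methods and the labels, adapters were removed with cutadapt, a base was trimmed, reads were mapped to hg19 with Bowtie, keeping reads with up to 3 locations, mitochondrial reads were removed with SAMtools and broad peaks were called with MACS2 on merged replicates. Versions and any shift of read ends for Tn5 are not given in the sources used here. The signal values that the authors deposited are counts in peaks, brought to the size of the smallest library and given to 0.1. How the HiSeq and NextSeq runs of an M-phase replicate were joined is not stated. The deposited log2 columns hold the authors' own change between phases and its SD and were not used. Because the values are scaled, no count model was used.

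Peaks were kept when at least 3 libraries held a value equivalent to 10 in a library of median size and the total was at least 15. limma 3.58.1 (R 4.3.3, mean-variance trend, two-sided, no covariates) was fitted to log2(scaled count + 8) of all peaks, or of sums per gene, with Benjamini-Hochberg adjustment over all features and a threshold of 0.05, and was tested on simulated data. TSSs of all transcripts came from GENCODE release 44 lifted to GRCh37, and sequences from GRCh37. Copies were sought with blastn 2.17.0 (at least 100 bp and 95% identity). Exact permutation tests used scipy 1.17.1. The named peaks were each gene's strongest TSS peak, other TSS peaks that were called or averaged at least 50 scaled counts, and up to 2 called flanking rises and 2 falls a gene; the other peaks described were chosen after their values were seen. The most similar genes, and the 2 largest rises and falls of each list, were also named, except for some genes that are not reported here. The genes and lists were chosen with earlier results of these data known. Alternatives were TMM scaling, equal totals, a trended loess normalization, a pseudocount of 1, other filters, other window sizes, a replicate block and each library left out.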

Additional observations from a re-analysis of the deposited data

How the results depend on the processing

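The scaling mattered most. The median log2 change of all peaks was 0.02 as reported, -0.08 with TMM scaling, -0.23 with equal totals and 0.04 after the loess normalization. That of the TSS sums of all genes was 0.48, 0.35, 0.15 and 0.01. The loess normalization was run separately on peaks, TSS sums and flanking sums, so a median near 0 in each was built in. The same counts can thus give different values as a peak and as a sum. For the flanking minus TSS difference both sums were normalized together. With equal totals, 7 TSS peaks were called higher and 1 lower, against 29.3% and 17.2% of all TSS peaks. The TSS sums were higher at 7 genes and lower at 0, against 36.4% and 17.2% of all genes. Flanking peaks called higher numbered 4 and lower 8, against 3.64% and 26.4% of the background. Of the flanking sums 4 were called, 3 of them lower, where the median over all genes was -0.31. After the loess normalization, 3 TSS peaks were higher and 1 lower, against 21.3% and 17.1% of all TSS peaks, and 4 TSS sums were called, FOXO3, FOXC1 and FOXD1 higher (3) and FOXO1 lower (1), against 22.7% of all genes in each direction; of these, the TSS peaks of FOXO3 and FOXD1 were not called. With at least 10 in every library, 3 flanking peaks were lower. With no extension of the gene body 0, and with 50 kb 6, TSS peaks of other genes were higher. Counting a TSS within 1 kb, 1 TSS peak, the FOXK2 repeat, was lower.

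Leaving out 1 library at a time gave 20 to 27 called peaks, 8 to 10 TSS peaks higher, 6 to 9 flanking peaks higher and 2 to 7 lower, the lowest counts of rises without G1 or M-phase replicate 2 and of falls without M-phase replicate 2, and 2 to 4 flanking sums called, 1 to 3 of them higher. The TSS sums higher were 8 to 9.

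Replicates of the same number in the 2 phases did not deviate together (r of 0.0059, -0.0101 and 0.0284), so the numbers were not taken as pairs. With the replicate number as a block, 2 flanking sums were higher, FOXP1 being added (0.29, adjusted p = 0.0398).

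Of 846 single values recomputed, 749 kept direction and call, 66 lost the call, 15 gained one and 16 changed sign. Those 16 were, after the loess normalization, the FOXO1 TSS sum (-0.30) and peak (-0.31), the intron 6 start of FOXP1 (-0.0089), the ENSG00000287665 start (-0.30), and the flanking minus TSS difference of FOXO1 (0.28) and FOXF2 (0.012). With equal totals they were the flanking sums of FOXO1 (-0.18), FOXC1 (-0.12), FOXK1 (-0.12) and FOXP1 (-0.059), the FOXP1 intron 6 start (-0.16) and the ENSG00000287665 start (-0.083). The FOXO1 flanking sum was -0.0011 with TMM scaling and, leaving out 1 library at a time, ranged from -0.12 (without M-phase replicate 2) to 0.38. In the same way the FOXK2 flanking sum ranged from -0.25 to 0.070 (without G1 replicate 2) and the FOXO1 difference from -0.59 to 0.016 (without M-phase replicate 3). The cause was not tested. A test of whole reads with a count model was not run, because whole reads could not be recovered in every column. Of the 87 peaks, 32 were too weak to be tested.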
